A study of Mus musculus with 4 samples.

Results

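Liver RNA of male C57BL/6 mice fed a high-fat, high-sucrose (HFHS) diet during 15 weeks was set against liver RNA of mice at the start of that diet. The pair is 2 of the 4 arrays of a time course, 1 array each for 0, 5, 10 and 15 weeks of feeding. C57BL/6 is a common inbred laboratory strain, here without a transgene or drug in any group. The mice were 5 weeks old when feeding began, so the 0-week array holds RNA of animals aged 5 weeks and the 15-week array of animals aged 20 weeks. The labels speak of 4 mice per time point and do not say whether an array holds 1 animal or a pool. No group of the older ages without the diet is analysed here, and time on the diet and age cannot be told apart.

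The comparison covers every gene with a probe that the scanner software marked as well above background at 0 and at 15 weeks, namely 17436 of the 34761 genes on the array. A level is the log2 of a probe's processed signal relative to the 75th percentile of its array. A difference is the 15-week level minus the 0-week level, centred so that the median measured probe stands at 0, and the levels of 5, 10 and 15 weeks are printed after the same centring. A gene is called higher or lower when the arrays differ at least 2-fold. With 1 array per time there is no replicate check, no test was made, and no p-value is given. The spread between repeated spots of a probe adds up to 0.0921 on the log2 scale for a difference, and it covers error within the arrays and not between animals.

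Feeding fat and sucrose fills hepatocytes, the main cells of the liver, with lipid droplets. Fat-laden liver is known to recruit monocytes from the blood, which turn into macrophages beside the resident Kupffer cells, and stellate cells around the sinusoids can turn into matrix-producing myofibroblasts. The hepatocyte's own work, such as nitrogen disposal, detoxification and the sex-dependent programme set by growth hormone, is carried by genes that are among the brightest on a liver array.

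Between 44.5% and 48.3% of spots were well above background on the 4 arrays, with the highest share at 15 weeks, and no spot was saturated. All 17 hepatocyte markers were above background on every array, and 15 of the 17 differed by less than 2-fold between 15 and 0 weeks. All 17 read lower at 15 weeks in the main setting (median −0.25, between −0.50 and 0.06 under the other scalings), and Cps1 and Tat were at least 2-fold lower. Their summed level, in units of the 75th percentile, was 20988 at 0 weeks and 17009 at 15 weeks. Albumin (Alb), the main plasma protein, read 11.60, 11.13, 11.51 and 10.95 at 0, 5, 10 and 15 weeks. Before centring, the median measured probe stood 0.25 lower at 15 weeks, so the split into higher and lower genes depends on how the arrays are put on 1 scale.

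At 15 weeks 1400 genes were at least 2-fold higher (8.03% of the measured genes) and 383 were at least 2-fold lower (2.2%), while 15653 lay within 2-fold. At least 4-fold differences were seen for 323 higher and 66 lower genes, and at least 8-fold for 52 and 17. Higher genes made up 78.5% of the called genes. That share was 64.5% with scaling to the array median, 56.6% without centring, 65.9% with quantile normalization and 91.4% with scaling to the spike-in controls. The middle 50% of genes lay between −0.25 and 0.32. Genes above background on 1 array only have a bound: among the 17325 genes left without a measured difference, that bound reached 2-fold upward for 445 (2.57%) and downward for 224 (1.29%). Of 303 called genes with several measured probes, 28 had probes of opposite direction.

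**Figure D1:**
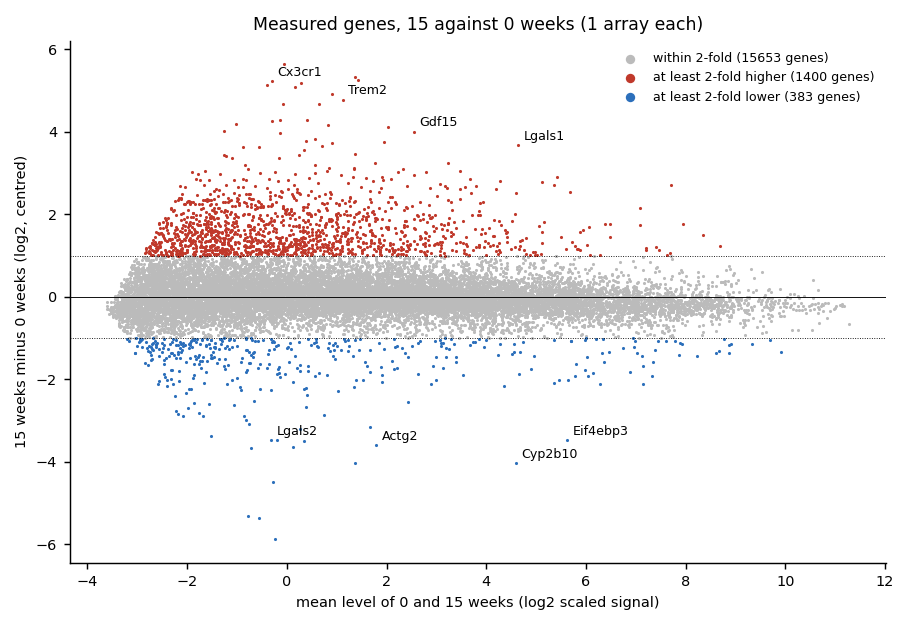
Each point is 1 measured gene, with the mean level of 0 and 15 weeks on the x axis (log2 scaled signal) and the centred log2 difference of 15 minus 0 weeks on the y axis; dotted lines mark 2-fold. Red points (1400 genes) outnumber blue points (383 genes), and Lgals1 and Gdf15 stand out among brighter genes.

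Macrophage genes stood higher at 15 weeks nearly as a whole list. Of 19 measured general macrophage markers, 18 exceeded 2-fold upward, 0 downward and 1 lay in between, for a median difference of 1.92, against 8.03% higher and a median near 0 over all measured genes. Under 6 other scalings of the arrays 16 to 18 were higher. Cd68, a lysosomal glycoprotein of macrophages, read 1.90, 3.13, 3.25 and 4.54 at 0, 5, 10 and 15 weeks, a 6.21-fold difference between 15 and 0 weeks. Adgre1, an adhesion receptor used to stain mouse macrophages, read 0.81, 1.74, 2.17 and 2.72 and was 3.77-fold higher. Lysozyme 2 (Lyz2) read −0.72, 0.60, 0.85 and 2.32 and was 8.23-fold higher. The 0-week array was thus the lowest and the 15-week array the highest for all 3 genes. Itgam, the integrin CD11b, was the 1 measured marker within 2-fold (0.48), and Spi1, the factor PU.1, was above background at 15 weeks and not at 0 weeks (at least 2.61-fold higher). In RNA of whole liver, more cells of a type and more RNA per cell cannot be told apart.

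Markers of recruited and lipid-associated macrophages, the cells that gather around dying fat-filled cells, had the highest median of the 56 lists, 2.84. Of 12 measured, 9 were higher, 0 lower and 3 within 2-fold. Of the 4 other listed genes 3 were above background at 15 weeks only (Gpnmb at least 30.1-fold, Mmp12 at least 3.11-fold and Ccr2 at least 2.36-fold higher), and Ly6c2 had no matched probe. The fractalkine receptor Cx3cr1 read −2.92, −0.73, −0.70 and 2.32 at 0, 5, 10 and 15 weeks, 37.7-fold higher at 15 than at 0 weeks. Trem2, a lipid-sensing receptor, read −1.27, 0.37, 0.38 and 3.52 and was 27.6-fold higher. Itgax, the integrin CD11c, read −2.43, −1.42, −0.97 and 1.83 and was 19.2-fold higher. For these 3 receptors the 0-week array was the lowest, and the 15-week array stood far above those of 5 and 10 weeks. Clec7a, the beta-glucan receptor Dectin-1, was 13.5-fold higher, the galectin Lgals3 9.47-fold and osteopontin (Spp1), which bile duct cells also make, 7.25-fold. With normexp background correction followed by quantile normalization (normexp below), the log2 differences of Cx3cr1 and Itgax came to 3.18 and 2.87 in place of 5.24 and 4.26.

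Genes of resident Kupffer cells differed less. Of 9 measured, 5 were higher and 4 within 2-fold, with a median of 1.11, and 3 to 6 were higher under the other scalings. The scavenger protein Cd5l read 5.59, 6.43, 6.95 and 7.37 and was 3.42-fold higher, and the scavenger receptor Marco read 3.68, 3.54, 3.90 and 5.14 and was 2.75-fold higher. The complement receptor Vsig4 was 2.16-fold and the folate receptor Folr2 2.35-fold higher, calls that were lost without centring. Clec4f, a Kupffer cell lectin, lay within 2-fold at 0.82. Timd4, a receptor for dying cells that marks long-lived Kupffer cells, read −0.26, −0.95, −0.31 and −0.99 and lay within 2-fold (−0.73). At 0 weeks 12 of the 44 spots around the Timd4 probe were also bright, which puts that level in a locally bright area of the array.

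Promoters of 16 of the 20 highest genes were found in the RefSeq table (assembly GRCm38.p6), as windows from 250 bases before to 50 after the start site. The AP-1 letters TGANTCA, bound by Fos and Jun proteins, were searched on both strands because immediate early genes were among the lists described. Letters of other elements, given below, were searched as well. The AP-1 letters occurred in 3 of those 16 genes, each time upstream of the start. These 3 are macrophage genes, as are others of the 20 highest, such as Cx3cr1 and Clec7a. The 16 genes have 20 promoters, and the shares given below are per promoter and not per gene. Capitals mark the letters in the stretches shown, which run 5′ to 3′ on the gene's own strand.
Trem2, chr17:48346332-48346400, plus strand: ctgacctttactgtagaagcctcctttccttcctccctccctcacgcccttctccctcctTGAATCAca
Itgax, chr7:128129434-128129549, plus strand: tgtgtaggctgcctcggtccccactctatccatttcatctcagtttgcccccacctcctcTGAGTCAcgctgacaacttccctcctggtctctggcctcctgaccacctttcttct
Ms4a7, chr19:11334696-11334836, minus strand: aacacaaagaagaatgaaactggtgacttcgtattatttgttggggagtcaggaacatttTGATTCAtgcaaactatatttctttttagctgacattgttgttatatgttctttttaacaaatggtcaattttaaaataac

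The AP-1 letters stood in 10.6% of the 282 promoters of genes at least 4-fold higher, in 8.7% of the 46 promoters of genes at least 4-fold lower, in 5.58% of 13143 promoters of all measured genes and in 7.81% of all 32851 promoters of the table. Letters of other elements were counted the same way, given here for promoters of genes at least 4-fold higher against those of all measured genes. They stood in 2.13% against 2.87% (CRE, TGACGTCA), 8.87% against 6.98% (STAT, TTCNNNGAA) and 1.42% against 1.17% (sterol element, TCACNCCAC). The shares were 3.19% against 2.41% for the D-box (TTATGNAA) and 14.5% against 14.3% for the antioxidant element (TGACNNNGC). A match is a description of the letters and not a bound site. Ms4a7, a membrane protein of macrophages, read −0.96, −0.27, 0.08 and 2.78 and was 13.3-fold higher at 15 weeks.

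Antigen-presenting genes stood apart in the same direction. Of 11 measured MHC class II and dendritic cell markers, 9 were higher, 0 lower and 2 within 2-fold (median 2.49). H2-Aa, an MHC class II chain, read 0.72, 2.05, 2.60 and 3.74 and was 8.10-fold higher. Cd74, the invariant chain of class II molecules, read 3.33, 4.49, 4.83 and 5.86 and was 5.76-fold higher. Ccr7, the receptor that guides dendritic cells to lymph nodes, was 6.40-fold higher. Each of these 3 genes read higher at each later time. Members of the H2 family can share signal between probes. The 2 members within 2-fold were the dendritic cell genes Zbtb46 (−0.72) and Siglech (0.34 by its brightest probe and −1.49 by another). Flt3 and Cd209a, both of dendritic cells, were above background at 15 weeks only, at least 4.20-fold and at least 7.09-fold higher. Ciita and Xcr1 were not well above background on either array.

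Lymphocyte markers were mixed. Of 12 measured T and NK cell markers 8 were higher and 4 within 2-fold (median 1.16), but 1 to 9 were higher under the other scalings, the lowest count with normexp. Cd3d, a chain of the T cell receptor complex, read −1.88, −1.37, −0.76 and −0.78 and was 2.15-fold higher, a call lost without centring. Cd4, a co-receptor that macrophages can also carry, lay within 2-fold at −0.78, and Cd3e, another chain of the complex, at −0.16. The summed level of the T and NK cell markers was 48.1 at 0 weeks and 46.0 at 15 weeks. Cd4 was the brightest measured member at both times (5.22 and 4.44 on the log2 scale), so this sum does not show the level of the others. Of 6 measured B and plasma cell markers 1 was higher and 5 within 2-fold (median 0.84, and 0 to 5 higher under the other scalings). Their summed level was 56.3 at 0 weeks and 37.6 at 15 weeks. Most of that sum came from the proteoglycan Sdc1, which hepatocytes also make and which read 5.77 and 5.11 on the log2 scale (−0.67). The other measured members were dim and read higher at 15 weeks, by 0.72 (Cd79a) to 1.08 (Jchain). Neutrophil markers had 4 of 7 higher and 3 within 2-fold (median 1.02). The 4 were the calprotectin chains S100a8 (7.30-fold) and S100a9 (6.29-fold), lipocalin 2 (Lcn2, 3.51-fold) and the peptide Camp (2.03-fold), whose call was lost under 6 of the alternatives. Of these 4 Lcn2 is also made by hepatocytes. The 3 within 2-fold were Ly6g (0.035), Csf3r (0.13) and Elane (−0.15). The granule genes Mpo and Ngp and the receptor Cxcr2 were not well above background on either array.

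Chemokine genes followed the macrophage genes in direction. Of 23 measured chemokines, cytokines and receptors, 16 were higher, 0 lower and 7 within 2-fold (median 1.58, and 10 to 18 higher under the other scalings). Ccl2, which draws monocytes out of the blood, read −2.39, −1.14, −0.18 and 2.70 and was 34.1-fold higher. Cxcl14, a chemokine of epithelia and fibroblasts, read −1.78, −1.09, −1.19 and 1.07 and was 7.21-fold higher. Cxcl1, a neutrophil attractant, read −1.32 at 0 weeks, 2.10 at 10 weeks and 1.66 at 15 weeks, 7.89-fold higher at 15 than at 0 weeks, with a 5-week level between those of 0 and 15 weeks. Cxcl10 was 4.94-fold, Ccl5 3.87-fold and Cxcl9 3.73-fold higher. Without the background filter 38 members of this list had a difference, against the 23 measured. A further 7 members were above background at 15 weeks only with a bound of at least 2-fold, against 2.57% of all genes without a measured difference. These 7 were led by the macrophage chemokines Ccl4 (at least 19.5-fold) and Ccl7 (at least 14.6-fold). The cytokine Tnf belonged to them (at least 2.78-fold), while Il6, Il10 and Ifng were not well above background on either array.

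Sensors of microbial and damage signals had 10 of 19 measured members higher and 9 within 2-fold (median 1.36). The endosomal receptor Tlr13 was 5.12-fold, the lipopeptide receptor Tlr2 4.02-fold and the co-receptor Cd14 3.43-fold higher. Relb, a subunit of NF-kappaB, was 5.24-fold higher by its brightest probe and had another probe at −0.08. Tnfaip3, which restrains NF-kappaB, was 4.11-fold higher.

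Interferon-stimulated genes had 19 of 31 measured members higher, 0 lower and 12 within 2-fold (median 1.13, and 12 to 22 higher under the other scalings). Against the same 0-week array, their median was 0.66 at 5 weeks and 1.08 at 10 weeks. Oas1a, which makes the second messenger that activates RNase L, read 2.25, 3.51, 3.91 and 5.11 and was 7.27-fold higher at 15 weeks. Oas2, of the same family, read −0.35, 0.47, 0.85 and 2.14 and was 5.61-fold higher. Isg15, a ubiquitin-like modifier, read 4.38, 5.56, 5.90 and 5.48 and was 2.14-fold higher, a call lost without centring. The Oas genes were thus highest at 15 weeks, while Isg15 was highest at 10 weeks. Ubd, another ubiquitin-like protein that interferon and TNF are known to induce, was no member of the list and read −1.25, −0.17, 0.99 and 2.92, 18.1-fold higher.

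The letters of the interferon-stimulated response element, GAAA repeated after any 2 bases and searched on both strands, occurred upstream of the start in 10 of the 16 higher interferon-stimulated genes that had a promoter in the table. The 3 shown differ in how many copies they hold, in capitals on either strand, where overlapping matches run together.
Oas1a, chr5:120907526-120907605, minus strand: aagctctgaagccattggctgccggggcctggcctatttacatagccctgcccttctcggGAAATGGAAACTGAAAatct
Isg15, chr4:156200819-156200956, minus strand: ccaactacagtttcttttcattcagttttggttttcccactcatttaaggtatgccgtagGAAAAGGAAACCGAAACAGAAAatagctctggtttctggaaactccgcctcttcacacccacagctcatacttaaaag
Gbp2, chr3:142620544-142620662, plus strand: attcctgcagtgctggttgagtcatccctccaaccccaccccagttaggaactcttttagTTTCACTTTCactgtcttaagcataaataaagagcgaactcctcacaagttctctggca

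These stretches hold 2, 3 and 1 matches. The letters stood in 7.8% of promoters of genes at least 4-fold higher, in 10.9% of those of genes at least 4-fold lower (5 of 46), in 3.13% of those of all measured genes and in 3.44% of the whole table. Gbp2, a guanylate-binding protein, read −0.10, 0.96, 1.54 and 1.79 and was 3.69-fold higher at 15 weeks.

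**Figure D2:**
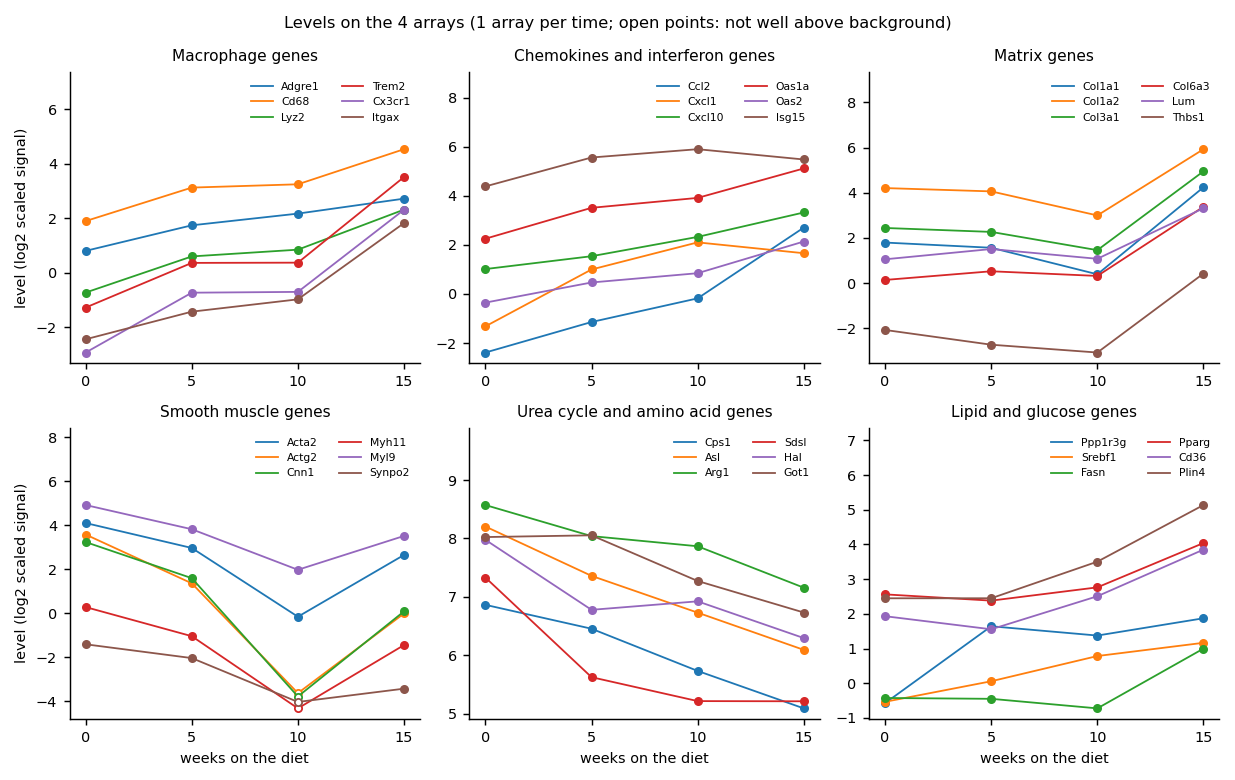
Levels (log2 scaled signal, y axis) of 36 genes in 6 panels against weeks on the diet (x axis), 1 array per time; open points were not well above background. Macrophage genes read highest at 15 weeks, matrix genes read highest at 15 weeks, smooth muscle genes read highest at 0 weeks, and urea cycle genes read lower at 15 weeks than at 0 weeks.

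Matrix genes were higher at 15 weeks. Of 28 measured collagens and matrix proteins, 16 passed 2-fold upward, none (0) downward and 12 lay in between, for a median of 1.24, and 13 to 22 were higher under the other scalings. Their medians against the same 0-week array were −0.11 at 5 weeks and −0.26 at 10 weeks. Col1a1, a chain of the fibrillar collagen that makes up most scar tissue, read 1.79, 1.56, 0.39 and 4.24 and was 5.46-fold higher at 15 than at 0 weeks. Col3a1, another fibrillar collagen, read 2.44, 2.27, 1.46 and 4.95 and was 5.69-fold higher. Col6a3, of the microfibrillar collagen VI, read 0.14, 0.52, 0.32 and 3.38 and was 9.46-fold higher. For Col1a1 and Col3a1 the 10-week array was the lowest and the 15-week array the highest of the 4. Col6a1 and Col6a2, which assemble with Col6a3, were 3.71-fold and 4.58-fold higher. Thrombospondin 1 (Thbs1), an activator of latent TGF-beta, read −2.08, −2.73, −3.08 and 0.42 and was 5.65-fold higher, and the proteoglycan lumican (Lum) was 4.79-fold higher.

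Enzymes that cut or crosslink matrix had 9 of 17 measured members higher, 1 lower and 7 within 2-fold (median 1.14). Adamts2, which trims procollagen, was 4.30-fold, the crosslinking enzyme Loxl1 3.93-fold and the protease cathepsin K (Ctsk) 3.91-fold higher. Timp1, an inhibitor of matrix proteases, read −3.76, −2.54, −2.11 and 2.14, where 0 weeks was not well above background, and was at least 51.5-fold higher. The 1 lower member was the epithelial protease Mmp7 (2.34-fold). Of 21 measured genes of TGF-beta and PDGF signalling 11 were higher and 10 within 2-fold (median 1.12, and 5 to 14 higher under the other scalings). Among them were the ligand Pdgfb (3.59-fold), its receptor Pdgfrb (3.94-fold) and the ligand Tgfb1 (2.50-fold), each of which read higher at 15 weeks than on the 3 earlier arrays. At 0 weeks 20 of the 44 spots around the Tgfb1 probe were bright.

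Stellate cell markers were mixed, with 6 of 16 measured members higher, 1 lower and 9 within 2-fold (median 0.80). Vimentin (Vim), an intermediate filament of mesenchymal cells, read 1.63, 2.23, 1.70 and 3.60 and was 3.94-fold higher, and the nerve growth factor receptor Ngfr was 3.59-fold higher. The lower member was smooth muscle actin (Acta2), the usual marker of myofibroblasts, which read 4.11, 2.98, −0.15 and 2.66 and was 2.73-fold lower. Acta2 was thus lower at 15 than at 0 weeks while the collagen genes were higher.

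Other smooth muscle genes went with Acta2. Of 13 measured, 6 were lower, 0 higher and 7 within 2-fold (median −0.59), against 2.2% lower over all measured genes, and Lmod1 was not well above background on either array. The enteric actin Actg2 read 3.59, 1.37, −3.62 and 0.00, which makes a log2 difference of −3.59 between 15 and 0 weeks. Calponin (Cnn1) read 3.25, 1.61, −3.77 and 0.10 and was 8.87-fold lower. The myosin heavy chain Myh11 read 0.29, −1.03, −4.31 and −1.43 and was 3.31-fold lower. These 3 genes were not well above background at 10 weeks and were highest on the 0-week array, so their differences rest on that array. Tagln (−0.47) and desmin (Des, −0.59), which are also contractile or filament genes, lay within 2-fold.

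The 8 largest bounds of genes lower at 15 weeks, among 224 of at least 2-fold, follow; these genes were chosen by that size and form no list. Dmbt1, a mucosal scavenger protein, read 6.94, 5.10, −5.42 and −5.80, where the 2 later arrays were not well above background, and was at least 1785-fold lower at 15 weeks. Reg1, a secreted lectin of pancreas and gut, was above background at 0 weeks only (at least 40.9-fold lower at 15 weeks). The mucin Muc3 (at least 17.4-fold), the mucus protein Fcgbp (−0.27 at 0 weeks and −3.89 at 15 weeks), the peptidase inhibitor Spink4 (at least 28.5-fold) and the glycosyltransferase B4galnt2 (at least 36.1-fold) were also among the 8, which Gm3646 and Fam83e complete. Among measured genes the keratin of bile ducts Krt19 read 3.01, 0.69, −0.75 and 1.28 and was 3.33-fold lower, and the galectin Lgals2 read 1.43, −1.21, −2.04 and −2.05 and was 11.1-fold lower. Of 13 measured bile duct markers 2 were lower, 2 higher and 9 within 2-fold (median −0.02, −0.28 to 0.29 under the other scalings). The summed level of the 15 listed bile duct markers on the array was 36.3, 42.0, 34.0 and 33.5 at 0, 5, 10 and 15 weeks, in units of the 75th percentile. Onecut1 was the brightest measured member at 0, 5 and 10 weeks (3.89, 4.66 and 4.82 on the log2 scale) and read 3.08 at 15 weeks. The sum leans on its brightest members and does not show the level of the others, such as Krt19. Of 6 measured exocrine pancreas and gut markers 1 was higher (Cela1, 4.11-fold) and 1 lower (Ctrb1, 4.18-fold). Cela1 was not well above background at 5 and 10 weeks and lay within 2-fold with normexp. Reg1 is also on this list, lower at 15 weeks by the bound given above. Cpa1, Prss2, Pnlip, Try4 and Muc2 were not well above background on either array. Whether other tissue was taken along with the liver at 0 weeks was not tested.

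**Figure D3:**
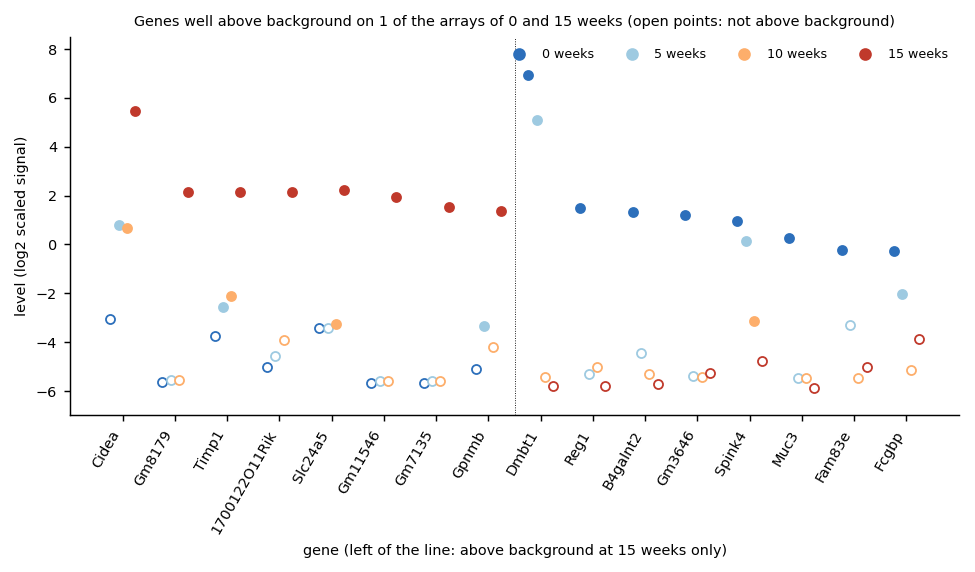
Levels (log2 scaled signal, y axis) on the 4 arrays of the 16 genes with the largest bounds, 8 in each direction, with filled points well above background and open points not. Cidea stands at 5.47 at 15 weeks, and Dmbt1 at 6.94 at 0 weeks, and both are open on the other array of the pair.

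Lipid genes differed in some steps and not in others. Of 18 measured genes of fatty acid synthesis 6 were higher, 0 lower and 12 within 2-fold (median 0.48). Srebf1, the transcription factor that drives lipogenesis, read −0.54, 0.06, 0.78 and 1.17 and was 3.25-fold higher. The desaturase Scd1 read 7.59, 8.10, 8.75 and 9.10 and was 2.84-fold higher, and its relative Scd2 was 3.43-fold higher. Both were highest at 15 weeks. Fatty acid synthase (Fasn) read −0.43, −0.45 and −0.72 on the first 3 arrays, was highest at 15 weeks and was 2.68-fold higher there than at 0 weeks, a call lost with normexp. The carboxylase Acaca (0.37) and the elongase Elovl6 (0.58) lay within 2-fold. Among 25 measured cholesterol synthesis genes, 5 were higher and 20 were not (median 0.43, and 3 to 8 higher under the other scalings), led by squalene epoxidase (Sqle, 4.45-fold).

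Genes of lipid uptake and storage had larger single differences. Of 20 measured genes of PPAR-gamma, lipid uptake and triglyceride synthesis 6 were higher and 14 within 2-fold (median 0.26). Pparg, the lipid-sensing receptor of adipocytes, read 2.56, 2.38, 2.76 and 4.04 and was 2.79-fold higher. The fatty acid transporter Cd36 read 1.93, 1.55, 2.51 and 3.85 and was 3.78-fold higher, and Mogat1, a monoacylglycerol acyltransferase, was higher by 1.58 on the log2 scale. All 3 were highest at 15 weeks. Of 17 measured lipid droplet proteins 4 were higher and 13 within 2-fold (median 0.20, which came to −0.04 without centring). The 4 were Plin4 (6.44-fold), Fitm1 (3.96-fold), Hilpda (3.22-fold) and Cidec (2.97-fold), while the main droplet coat Plin2 lay within 2-fold at 0.54.

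Cidea, a droplet fusion protein of brown fat that also appears in fatty liver, had the largest bound of the genes above background at 15 weeks only. It read −3.07, 0.80, 0.66 and 5.47, where 0 weeks was not well above background, and was at least 371-fold higher. Adipsin (Cfd), a protease of adipocytes, read −0.03, 4.20, 4.35 and 4.10 and was 17.5-fold higher, at about the same level on the 3 later arrays. Of 7 measured adipocyte markers 5 were higher and 2 within 2-fold (median 1.60). Their summed level over 13 listed genes was 823 at 0 weeks and 1138 at 15 weeks, of which Pck1 and Car3, which hepatocytes also express, made up 795 and 997. The defining adipocyte genes Adipoq, Lep, Plin1, Retn and Ucp1 were not well above background at 0 or 15 weeks.

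Fatty acid oxidation genes mostly lay within 2-fold. Of 30 measured genes of PPAR-alpha, oxidation and ketogenesis 0 were higher, 6 lower and 24 within 2-fold (median −0.22, between −0.47 and 0.09 under the other scalings). Under spike-in scaling, normexp or quantile normalization alone, 2 were lower. The peroxisomal enzyme Ehhadh read 7.84, 7.81, 6.14 and 6.41 and was 2.69-fold lower. The omega-hydroxylases Cyp4a14 (2.54-fold), Cyp4a31 (2.20-fold) and Cyp4a10 (2.06-fold) were lower in the main setting and within 2-fold with quantile normalization, and they can share signal. The carnitine transferase Cpt1a (−0.16) and Ppara itself (0.17) lay within 2-fold.

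Glucose genes mostly lay within 2-fold. Ppp1r3g, a glycogen-targeting subunit of protein phosphatase 1, read −0.57, 1.64, 1.37 and 1.87 and was 5.44-fold higher, with the 3 later arrays all above the 0-week array. Of 20 measured genes of glycolysis, fructose and glycogen 5 were higher and 15 within 2-fold (median −0.05, between −0.30 and 0.26 under the other scalings). Hk2, a hexokinase scarce in normal hepatocytes, was above background at 15 weeks only (at least 5.76-fold higher). Of 16 measured genes of gluconeogenesis and insulin signalling 1 was higher, the pyruvate dehydrogenase kinase Pdk4 (2.50-fold), and 15 lay within 2-fold, among them Pck1 (−0.62) and G6pc (−0.80).

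Amino acid genes were lower at 15 weeks. Of 30 measured genes of the urea cycle and amino acid breakdown, 12 passed 2-fold downward, 0 upward and 18 lay in between (median −0.91, with 10 to 17 lower and medians of −1.16 to −0.60 under the other scalings). The median was −0.41 at 5 weeks and −0.49 at 10 weeks against the same 0-week array. Argininosuccinate lyase (Asl) read 8.20, 7.36, 6.73 and 6.10 and was 4.31-fold lower. Carbamoyl-phosphate synthetase (Cps1), which starts the urea cycle, read 6.87, 6.46, 5.74 and 5.09 and was 3.41-fold lower. Arginase (Arg1), which ends it, read 8.57, 8.04, 7.87 and 7.16 and was 2.66-fold lower. These 3 enzymes read lower on each later array. The synthetase Ass1 (−0.81 by its brightest probe and −1.12 by another) and the transcarbamylase Otc (−0.32) stand between them in the cycle. By the brightest probe both lay within 2-fold. The serine dehydratase relative Sdsl was 4.34-fold, histidine ammonia lyase (Hal) 3.20-fold and tyrosine aminotransferase (Tat) 2.68-fold lower.

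Cps1, Arg1, Hal, Sds and Sdsl are also genes of periportal hepatocytes, those next to the incoming portal blood. Of 20 measured periportal genes 6 were lower, 1 higher and 13 within 2-fold (median −0.49, and below 0 under all 6 other scalings). Of 18 measured pericentral genes, those around the outgoing vein, 0 were at least 2-fold different (median −0.23, up to 0.08 with spike-in scaling), with glutamine synthetase (Glul) at −0.12 and Cyp2e1 at −0.25. Respiratory chain and ATP synthase genes had 30 of 30 within 2-fold (median −0.32), and chaperones of the endoplasmic reticulum had 22 of 22 within 2-fold (median −0.03), with Hspa5, the main chaperone there, at −0.17.

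Drug-metabolising cytochromes were lower, and the 0-week array carried the highest level of several. Of 25 measured, 10 were lower, 0 higher and 15 within 2-fold (median −0.98, with 6 to 14 lower under the other scalings). Cyp2b10, which foreign compounds induce through the receptor CAR, read 6.61, −3.71, −1.21 and 2.57, where 5 weeks was not well above background, and was 16.4-fold lower at 15 than at 0 weeks. Por, the reductase that feeds electrons to all microsomal cytochromes, read 7.07, 6.68, 6.48 and 5.23 and was 3.56-fold lower. Cyp3a11 read 9.47, 6.01, 7.41 and 8.33 and was 2.20-fold lower. For Cyp2b10 and Cyp3a11 the 15-week level lay between that of 0 weeks and those of 5 and 10 weeks. Members of the Cyp2b, Cyp2c and Cyp3a families can share signal between probes.

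Sex-biased genes, which follow the pulse pattern of growth hormone and mature after weaning, differed as well in these males. Of 18 measured female-biased genes 9 were lower, 1 higher and 8 within 2-fold (median −1.01, with 7 to 13 lower under the other scalings). Sult1e1, the estrogen sulfotransferase, read 0.81, 0.44, −1.98 and −1.44 and was 4.75-fold lower. Hamp2, a hepcidin gene, read 6.41, 3.23, 3.62 and 4.32 and was 4.27-fold lower. The 1 higher member was Ntrk2, the receptor of brain-derived neurotrophic factor, which read −1.34, −0.43, −0.76 and 2.48 and was 14.1-fold higher. Of 22 measured male-biased genes 5 were higher, 1 lower and 16 within 2-fold, while 4 were higher and 5 lower without centring. Their median was 0.11 at 15 weeks, −0.14 to 0.42 under the other scalings, against 0.81 at 5 weeks and 0.64 at 10 weeks. Hsd3b5, a hydroxysteroid dehydrogenase of male liver, read 1.33, 5.62, 5.49 and 2.99 and was 3.16-fold higher at 15 than at 0 weeks. The oxysterol hydroxylase Cyp7b1 read 4.51, 8.32, 6.69 and 5.53 and was 2.03-fold higher, a call lost under 3 other scalings. Both male-biased genes were thus higher on the arrays of 5 and 10 weeks than at 15 weeks.

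**Figure D4:**
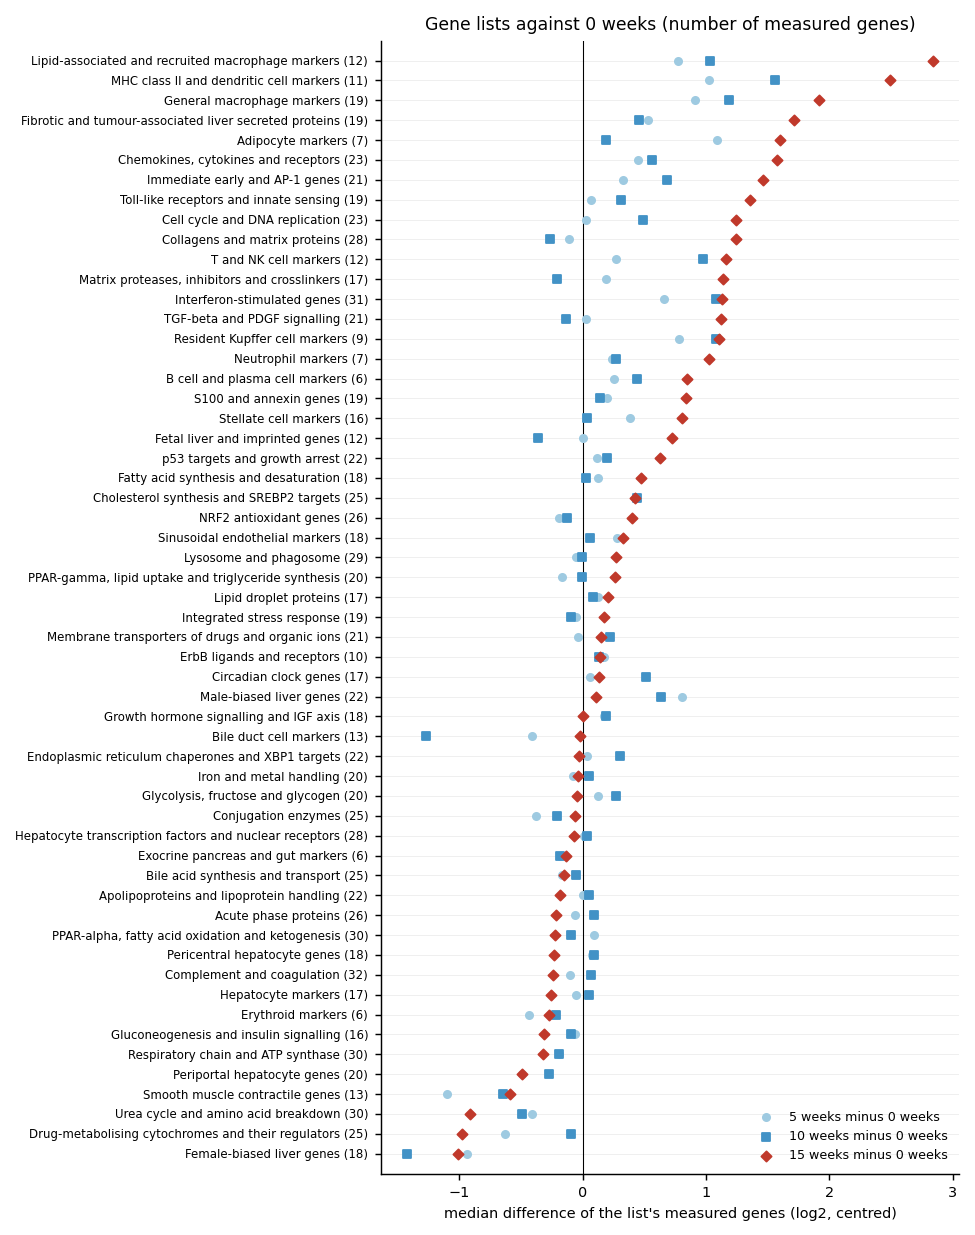
Median centred log2 difference (x axis) of the measured genes of 56 lists (y axis, number measured in brackets) at 5, 10 and 15 weeks, each against the same 0-week array; at 5 and 10 weeks the median is over members above background there. Recruited macrophage markers reach 2.84 at 15 weeks and female-biased liver genes −1.01, and the median of matrix genes is below 0 at 5 and 10 weeks.

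Secreted proteins associated with fibrosis and liver tumours formed a list in which 14 of 19 measured members were higher, 1 lower and 4 within 2-fold (median 1.71, with 12 to 16 higher under the other scalings). Growth differentiation factor 15 (Gdf15), a stress hormone that acts on appetite, read 0.54, 2.62, 2.86 and 4.55 and was 16.1-fold higher. Galectin 1 (Lgals1) read 2.81, 3.72, 4.67 and 6.48 and was 12.8-fold higher. Both read higher on each later array. Some members of this list, such as Spp1 and Lgals3, are also macrophage markers above. Annexin A2 (Anxa2) was 7.56-fold higher, and of 19 measured S100 and annexin genes 9 were higher, 1 lower and 9 within 2-fold (median 0.84), with S100a4 (12.7-fold) and S100a11 (11.1-fold) the highest. The 1 lower member, the calcium-binding protein S100g, read 1.48, −5.59, −3.78 and −0.73 and was above background at 0 and 15 weeks only.

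Stress-induced transcription factors were higher too. Of 21 measured immediate early and AP-1 genes 14 were higher, 0 lower and 7 within 2-fold (median 1.47, with 8 to 16 higher under the other scalings). Atf3, a factor induced by many stresses, read −1.73, −1.07, 0.09 and 2.55 and was 19.4-fold higher. Klf6 read 1.82 at 0 weeks and 4.52 at 15 weeks. The phosphatase Dusp2 was 5.59-fold, Fos 4.88-fold and Jun 2.95-fold higher. Fos read −2.10, −1.38, 0.75 and 0.18, so that it was highest at 10 weeks, unlike Atf3. Immediate early genes also respond to handling during tissue collection, and its part in these values was not tested.

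The integrated stress response, which slows translation and induces amino acid and secretory genes, was mixed. Of 19 measured genes 6 were higher, 1 lower and 12 within 2-fold (median 0.17, and −0.08 without centring). The hormone Fgf21 read 0.32, 2.76, 1.70 and 3.13 and was 7.04-fold higher, and the chromatin protein Nupr1 read 0.51, 0.83, 0.53 and 3.33 and was 7.08-fold higher. The lower member was the transsulfuration enzyme Cth (2.57-fold). Of 22 measured p53 targets and growth arrest genes 9 were higher, 0 lower and 13 within 2-fold (median 0.62). They included the death receptor Tnfrsf10b (8.30-fold), Phlda3 (7.47-fold), the BH3 protein Pmaip1 (5.11-fold) and Btg2 (4.59-fold). Cdkn2a, which encodes inhibitors of the cell cycle, was above background at 15 weeks only (at least 2.97-fold higher).

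Cell cycle genes differed in both directions. Of 23 measured, 12 were higher, 2 lower and 9 within 2-fold (median 1.24, with 7 to 14 higher under the other scalings). Cdc20, an activator of the anaphase-promoting complex, read −2.13, −1.20, −0.52 and 1.85 and was 15.8-fold higher. Mki67, the proliferation antigen Ki-67, read −2.37, −1.39, −1.15 and 1.26 and was 12.4-fold higher. Cyclin D1 (Ccnd1) read 1.71, 2.77, 3.06 and 4.45 and was 6.68-fold higher. All 3 read higher on each later array. The 2 lower genes were Top2a, the mitotic topoisomerase, which read −1.06, −4.80, −4.41 and −2.56, and the phosphatase Cdc25c, which read −1.94, −5.55, −5.58 and −3.20. Top2a was 2.83-fold and Cdc25c 2.40-fold lower, and both were not well above background at 5 and 10 weeks and lay within 2-fold with normexp. At 0 weeks 11 of the 44 spots around the Top2a probe were bright.

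Antioxidant genes controlled by NRF2 had 6 of 26 measured members higher, 2 lower and 18 within 2-fold (median 0.40), with 3 higher without centring and 10 with spike-in scaling. Haem oxygenase (Hmox1) read 2.29, 3.03, 3.38 and 4.20 and was 3.76-fold higher, and glucose-6-phosphate dehydrogenase (G6pdx) was 2.71-fold higher. Nqo1, the reference target of NRF2, lay within 2-fold at 0.45. Gm3776, which has a number for a name in the RefSeq symbols used here, had the largest measured difference of the named genes. It read −1.28, −1.92, 0.15 and 4.04 and was 40.0-fold higher. Its probe lies at chr9:78116894-78116953 in build mm9.

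Of the other genes in the first 20, Serpina7, Osbpl3, Adgrv1 and Slc35e3 are in none of the lists. Serpina7, the thyroxine-binding globulin of plasma, read −2.31, −0.06, 1.36 and 2.88 and was 36.6-fold higher. Neuregulin 1 (Nrg1), a ligand of ErbB receptors, read −2.97, −2.50, −2.63 and 2.18 and was 35.3-fold higher. Serpina7 read higher on each later array, while Nrg1 stood apart at 15 weeks only. Of 10 measured ErbB ligands and receptors 3 were higher and 7 within 2-fold (median 0.14, and −0.10 without centring), with 1 higher under normexp. The receptor Erbb4 read −2.64, −2.14, −1.13 and −0.58 and was 4.18-fold higher. That call was lost with normexp, as was that of the ligand Btc (2.74-fold). The receptors Egfr (−0.20 by its brightest probe, down to −1.68 by another) and Erbb3 (−0.35) lay within 2-fold. Osbpl3, an oxysterol-binding protein relative, read −1.55, 0.59, −0.27 and 3.38 and was 30.4-fold higher, with 2 probes of the same direction. The adhesion receptor Adgrv1 read −1.69, 0.56, 1.20 and 2.98 and was 25.5-fold higher. Slc35e3, of a family of nucleotide-sugar transporters, was 19.5-fold higher, with 6 of the 44 spots around it also bright on the 15-week array.

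At the lower end stood E030018B13Rik, a gene with a RIKEN clone name, which read 1.88, −0.14, −2.35 and −3.43 and was 39.7-fold lower. Eif4ebp3, a repressor of cap-dependent translation, read 7.36, 6.74, 5.25 and 3.89 and was 11.1-fold lower. Slc13a2, a citrate and succinate transporter, read 1.54, −0.18, −0.79 and −1.94 and was 11.1-fold lower. These 3 genes read lower on each later array, unlike Actg2 and Cnn1. Smim38, a small membrane protein, was 12.4-fold lower, Car9, a carbonic anhydrase that hypoxia induces, 7.97-fold, and Erp27, a chaperone relative of the endoplasmic reticulum, 7.27-fold lower.

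Acute phase and complement genes of the hepatocyte mostly lay within 2-fold. Of 26 measured acute phase proteins 5 were higher, 2 lower and 19 within 2-fold (median −0.22, up to 0.10 under the other scalings), and the lower count was 5 without centring and 0 with quantile normalization. Serum amyloid genes read higher on all later arrays: Saa1 read 7.07, 9.88, 8.84 and 8.84 and Saa2 read 6.00, 9.13, 8.08 and 8.16, 3.42-fold and 4.44-fold higher at 15 weeks, and both can share signal. C-reactive protein (Crp, −0.09) and C3 (−0.34) lay within 2-fold. Of 32 measured complement and coagulation genes 7 were higher and 25 within 2-fold (median −0.24, up to 0.07 under the other scalings). The higher members included F13a1 (4.33-fold), Plaur (3.99-fold) and C1qa (3.60-fold), which macrophages also make. With normexp 4 members were higher and F13a1 lay within 2-fold (0.75). Sinusoidal endothelial markers had 17 of 18 within 2-fold (median 0.33), with the receptor Stab2 at 0.34, and the 1 higher member was Cd34 (3.06-fold), a marker of capillary-type endothelium.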

How the data were processed

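RNA of frozen mouse liver was labelled with Cy3 and hybridised to 1-colour Agilent arrays of 59305 spots and 55681 probes, 1 array per time. Per the file headers, the deposited intensity values were extracted with Agilent Feature Extraction 10.7.3.1 and are its processed signals, to which its background subtraction step had been applied. Control spots and spots marked as outliers were left out, and repeated spots of a probe were averaged. The log2 intensity was scaled to each array's 75th percentile and centred on the median measured probe. Probes with 5 or more TG or AC units in a row were left out (264 on the array). The brightest measured probe stood for a gene. Probes were named through RefSeq accession (27598), symbol (3493) or synonym (393), and 24197 kept the name in the files. The probe position printed is that of the array design (build mm9).

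For a gene above background on 1 array, the bound is the brighter level against the higher of its dim level and the lowest level above background on that array. Named genes were the 20 highest and 20 lowest with a RefSeq symbol, outside locally bright areas and the 4359 genes of lowest mean signal. They were joined by up to 6 members in each direction of each list, members that define a list or step, the 8 largest bounds in each direction, and the 10 brightest genes at 0 weeks. Outside that rule, Adgre1, Cd3d, Col6a1, Cxcl9, Cyp3a11, Isg15, Jun, Tgfb1, Tfdp2, B3galnt1 and the other bounds of list members were chosen after their values were seen. The members, the 56 lists and the rule were chosen with earlier results of these data known. The definition of locally bright (8 or more of 44 neighbouring spots at least 2-fold above the other arrays) and the spike-in scaling were chosen after seeing the data. The calculation was tested on simulated data. The alternatives were other scalings, background correction with normexp (offset 50), filters, probe rules, thresholds and the deposited value table. R 4.3.3 with limma 3.58.1 and Python 3.11.15 with numpy 2.4.6, pandas 2.3.3 and matplotlib 3.10.9 were used. The number of arrays limits the precision. Some genes are not reported here.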

Additional observations from a re-analysis of the deposited data

How the results depend on the processing

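No leave-one-out was possible with 1 array per time. No paired analysis was possible because each time has 1 array and no replicate number. The main setting had 1400 genes at least 2-fold higher at 15 weeks than at 0 weeks and 383 genes at least 2-fold lower at 15 weeks than at 0 weeks. The lower count was 610 with array median scaling, 764 without centring, 576 with quantile normalization and 204 with spike-in scaling, which gave 2172 higher. Normexp with quantile normalization gave 654 higher and 221 lower. Without the background filter 4450 were higher and 1323 lower. Leaving out probes with 5 or more TG or AC units anywhere gave 474 and 155 of 6853 genes tested. Leaving out the 4359 genes of lowest mean signal gave 229 lower. A fold of 1.5 gave 2588 higher and 1323 lower, and a fold of 4 gave 323 and 66. The other alternatives stayed within 1.5 times. Of 246 named genes that were at least 2-fold different in the main setting, 64 lay within 2-fold under at least 1 of 13 alternatives. Of these 64, 49 did so with normexp, and 85 of the 246 moved by over 1.5-fold with it. The 246 leave out Adgre1, Cd3d, Col6a1, Cxcl9, Cyp3a11, Isg15, Jun, Tgfb1, Tfdp2 and B3galnt1, which were chosen after their values were seen. The medians of 22 of 56 lists changed sign under at least 1 of 6 other scalings. Apart from what the alternatives' construction shows (fewer or more genes tested), the cause was not tested. Differences of dim genes are limited by their signal over background.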

Other observations

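Probes with 5 or more TG or AC units in a row, left out of all comparisons, had a median difference of −1.03 at 15 weeks over 229 measured probes, with 116 at least 2-fold lower and 26 higher. Against the same 0-week array their median was −0.24 at 10 weeks.

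Genes of fetal liver and imprinted loci had 6 of 12 measured members higher, 0 lower and 6 within 2-fold (median 0.73, with 3 to 6 higher under the other scalings). The imprinted RNA H19 read −1.61, −2.20, −2.62 and 0.93 at 0, 5, 10 and 15 weeks and was 5.83-fold higher at 15 than at 0 weeks. Ly6d, a surface antigen, read 4.42, 3.18, 3.92 and 6.96 and was 5.82-fold higher. Of 20 measured genes of iron and metal handling 2 were higher and 3 lower (median −0.03). The transferrin receptor Tfrc read 1.07, 0.25, −0.31 and −0.65 and was 3.29-fold lower, and hepcidin (Hamp) lay within 2-fold at 0.37. Of 17 measured circadian clock genes 1 was higher (Bhlhe40, 2.47-fold), 1 lower (Usp2, 2.45-fold) and 15 within 2-fold.

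Tfdp2, a cell cycle factor, was 16.2-fold lower by its brightest probe, with 19 of the 44 spots around that probe bright at 0 weeks, and its other probe stood at 0.09. B3galnt1, a glycosyltransferase, was 11.2-fold lower, with 22 such spots.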
